A study of Mus musculus with 20 samples.

Results

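The neurotrophin and GDNF family genes described here are 8 genes found by symbol among the 24848 genes measured: the ligands Bdnf, Ntf3 and Gdnf, the neurotrophin receptors Ntrk2, Ntrk3 and Ngfr, and the GDNF family co-receptors Gfra1 and Gfra2. They were listed with their levels in these libraries already known, so their own levels and fold changes are given as a description, without a test. All 8 were among the 14751 genes that passed the filter on low counts. RNA sequencing of C57BL/6 mouse liver cells gave 20 libraries in 5 groups of 4. The groups were portal mesenchymal stem cells (PMSC), myofibroblasts derived from them in culture at 3 days (PMSC-MF-3d) and at 7 days (PMSC-MF-7d), myofibroblasts derived in culture from hepatic stellate cells (HSC-MF-7d), and hepatic stellate cells (HSC). The titles give the cultured stellate cells 7 days and the series description gives them 3 days. The titles were followed, and every comparison with HSC-MF-7d carries that uncertainty in time. No genotype, age, sex, treatment or isolation method is given in the sources used here, and the labels do not say whether the 4 libraries per group are independent animals or cultures. P-values therefore measure only the spread between these libraries, which may be technical.

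Neurotrophins are small secreted dimers that keep neurons alive and guide their axons. BDNF binds the receptor tyrosine kinase TrkB (Ntrk2), neurotrophin-3 (Ntf3) prefers TrkC (Ntrk3), and all neurotrophins and their uncleaved precursors can bind the p75 receptor (Ngfr), which has no kinase domain. GDNF signals through the kinase Ret once it is held by a GPI-anchored co-receptor, GFRα1 (Gfra1), while GFRα2 (Gfra2) prefers neurturin. In liver, p75 is an established feature of stellate cells, the vitamin A-storing cells of the space of Disse, and portal fibroblasts surround the bile ducts and the nerves and vessels of the portal tract.

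Total deposited counts per library spanned 11810532 to 21438753 among PMSC. PMSC-MF-3d libraries held 23641579 to 24258856, PMSC-MF-7d libraries 22738017 to 26675589, HSC-MF-7d libraries 13572278 to 18382038 and HSC libraries 14806349 to 18650355. Levels below are CPM, the counts relative to library sizes scaled by trimmed means, unless TPM, which also correct for transcript length, are named. Summed over 10 portal fibroblast markers, PMSC libraries held 18140 to 20740 CPM and HSC libraries 31.99 to 63.59 CPM. Over 9 stellate markers, PMSC libraries held 2489 to 3218 CPM and HSC libraries 18650 to 28160 CPM, so each label stood with its markers. The HSC libraries also held hepatocyte markers (8 genes, 3154 to 13360 CPM, against 626.6 to 1045 in PMSC), sinusoidal endothelial markers (8 genes, 6183 to 7345 CPM, against 40.53 to 173.3 in PMSC) and macrophage markers (8 genes, 1845 to 6886 CPM, against 9.063 to 18.95 in PMSC). In the cultured groups these 3 sums were at most 43.07 CPM. Cycling markers (8 genes) summed to 857.6 to 978.6 CPM in PMSC-MF-3d, 795.7 to 939.2 CPM in PMSC-MF-7d and 372.9 to 433.2 CPM in HSC-MF-7d, against 9.976 to 27.09 CPM in PMSC and 56.47 to 86.19 CPM in HSC. The part of any of these markers in the results below was not tested.

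On GRCm38 the genes lie apart from each other: Bdnf at chr2:109674700-109727043, Ntf3 at chr6:126101412-126166772, Gdnf at chr15:7810048-7837580, Ntrk2 at chr13:58806472-59133970, Ntrk3 at chr7:78179986-78581034, Ngfr at chr11:95568818-95587698, Gfra1 at chr19:58235581-58455946 and Gfra2 at chr14:70890107-70979840.

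Promoters are shown for Ntrk2, the member with the highest level in PMSC, and for Bdnf and Gdnf, which HSC libraries nearly lacked and cultured stellate cells held. Each is 300 bases, from 250 before to 50 after a transcript start, from RefSeq on GRCm38.p6, which is the mm10 build. The RefSeq table held 14 promoters for 6 of the 8 genes. Ntrk3 and Gfra2 had none. Capitals mark matches, on either strand, to any of 6 short motifs: AP-1 (TGANTCA), the full CRE (TGACGTCA), its part TGACG, TEAD (GGAATG), EGR (GCGTGGGCG) and the TATA box (TATAAA).
Ntrk2 promoter (chr13:58806319-58806618, + strand): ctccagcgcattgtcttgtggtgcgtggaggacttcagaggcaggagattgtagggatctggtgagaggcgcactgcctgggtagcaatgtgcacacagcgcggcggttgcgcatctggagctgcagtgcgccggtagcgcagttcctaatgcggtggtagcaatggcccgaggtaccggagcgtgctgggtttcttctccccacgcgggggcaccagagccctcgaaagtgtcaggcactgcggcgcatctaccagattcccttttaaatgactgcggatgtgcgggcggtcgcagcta
Bdnf promoter 2 (chr2:109676782-109677081, + strand): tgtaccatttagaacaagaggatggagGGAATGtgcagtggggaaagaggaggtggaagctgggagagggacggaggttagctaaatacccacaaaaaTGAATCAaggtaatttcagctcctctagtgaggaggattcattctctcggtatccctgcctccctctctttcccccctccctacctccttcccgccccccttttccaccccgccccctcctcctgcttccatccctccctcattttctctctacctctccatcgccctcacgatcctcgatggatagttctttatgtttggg
Bdnf promoter 7 (chr2:109722671-109722970, + strand): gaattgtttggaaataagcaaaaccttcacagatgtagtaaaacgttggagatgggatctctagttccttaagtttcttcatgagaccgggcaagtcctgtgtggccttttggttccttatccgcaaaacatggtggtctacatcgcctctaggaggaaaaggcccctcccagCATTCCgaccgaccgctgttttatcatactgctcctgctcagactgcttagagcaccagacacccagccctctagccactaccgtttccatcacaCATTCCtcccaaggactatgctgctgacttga
Gdnf promoter 1 (chr15:7809798-7810097, + strand): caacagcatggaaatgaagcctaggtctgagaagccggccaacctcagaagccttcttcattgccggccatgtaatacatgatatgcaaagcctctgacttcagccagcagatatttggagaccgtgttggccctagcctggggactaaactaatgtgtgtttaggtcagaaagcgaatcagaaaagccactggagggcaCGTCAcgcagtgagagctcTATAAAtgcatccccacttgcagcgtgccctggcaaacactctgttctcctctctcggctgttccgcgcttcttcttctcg

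The Ntrk2 promoter held none of the 6 motifs. Bdnf promoter 2 held a TEAD match and an AP-1 match, and promoter 7, the last of the 7 along the gene, held 2 TEAD matches on the opposite strand. Gdnf promoter 1 held the short CRE part on the opposite strand and a TATA box. Among 32851 RefSeq promoters of the same length, 14.7% held the TEAD letters, 7.81% AP-1, 1.79% the full CRE, 20.8% its short part, 13.6% the TATA box and 0.612% EGR. A full CRE contains the short part, so those shares overlap. Of the promoters not printed, Bdnf promoter 3 held the short CRE part and the Gfra1 promoter a TEAD match, while Bdnf promoters 1, 4, 5 and 6, both Ntf3 promoters, the Ngfr promoter and Gdnf promoter 2 held none of the 6. Matches are a description of these windows.

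Bdnf, the ligand of TrkB, was the member whose level was higher in every cultured group than in the cells it came from. PMSC libraries held 20.2, 14.7, 13.8 and 26.0 CPM, the 3-day cultures 28.5, 39.5, 35.1 and 39.99 CPM, and the 7-day cultures of PMSC 100.5, 152.2, 139.9 and 132.7 CPM. HSC-MF-7d libraries held 169.8, 188.1, 185.7 and 185.4 CPM, and HSC libraries held 0.181, 0.0596, 0 and 0.261 CPM, which is 8 counts in all. No library of any group overlapped those of another: HSC-MF-7d stood highest, then PMSC-MF-7d, PMSC-MF-3d, PMSC and HSC. The log2 fold change was 2.81 ± 0.19 (SE) for PMSC-MF-7d over PMSC and 10.50 ± 0.34 for HSC-MF-7d over HSC, the last being 11.10 without HSC replicate 4. The 2 starting cell types differed by 7.22 ± 0.36 on the log2 scale, with PMSC higher. The myofibroblasts of the 2 origins differed by much less, -0.47 ± 0.18 for PMSC-MF-7d over HSC-MF-7d.

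**Figure D1:**
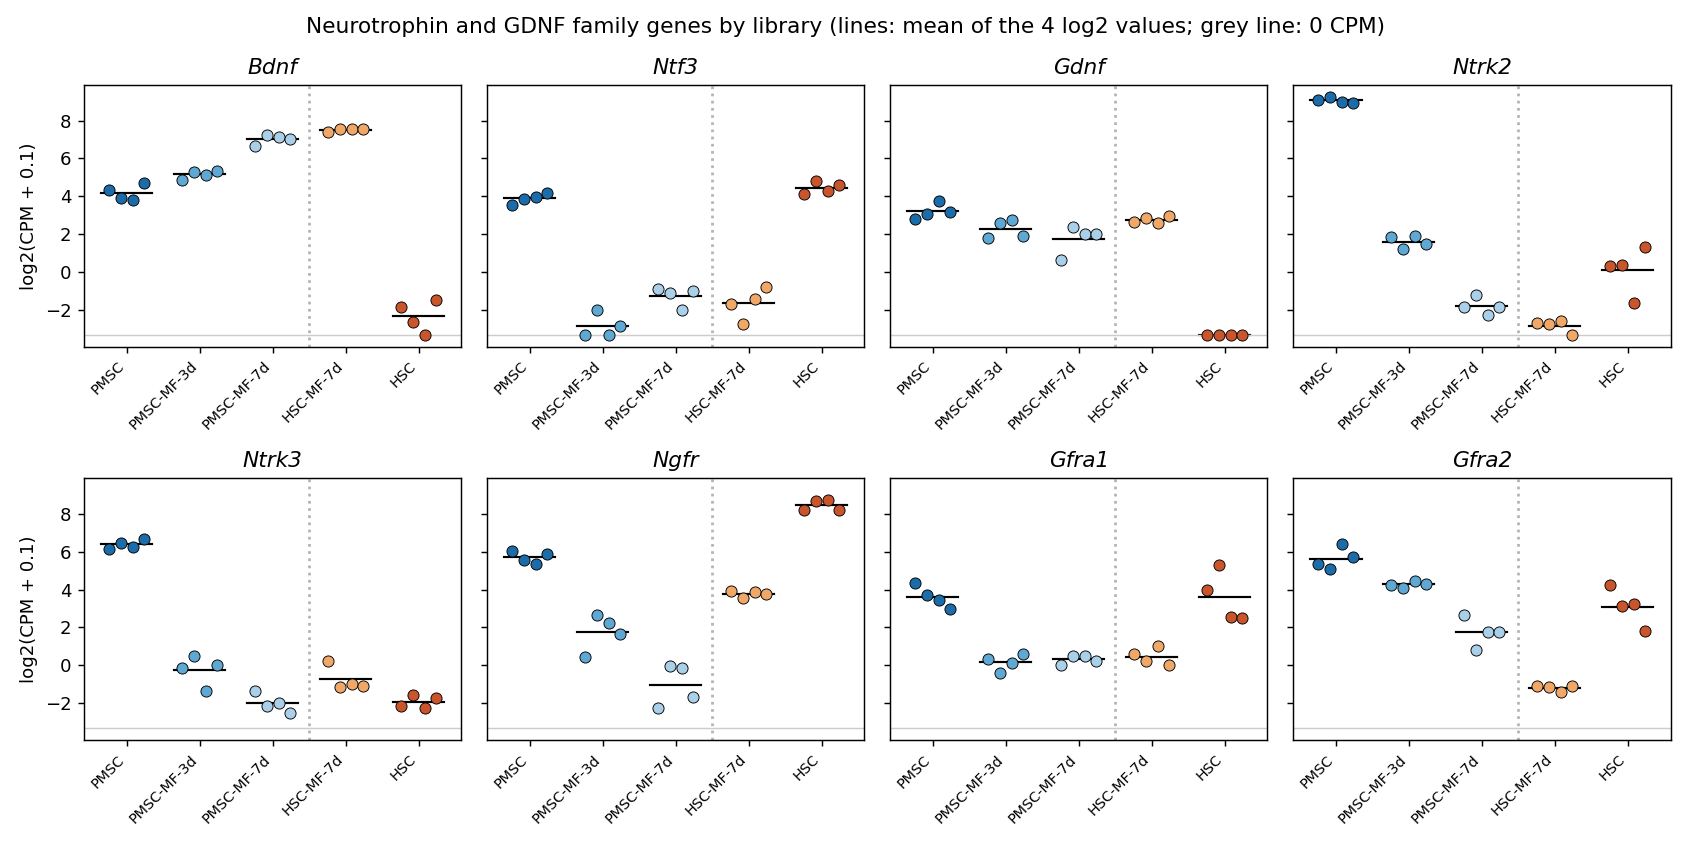
Level of each of the 8 genes in the 20 libraries, as log2(CPM + 0.1), with points for libraries, black lines for the mean of the 4 log2 values and a grey line at 0 CPM. Bdnf is highest in the cultured groups, Ntrk2 and Ntrk3 are highest in PMSC, Ngfr is highest in HSC, and the 4 HSC libraries hold no Gdnf count.

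Ntf3, which encodes neurotrophin-3, went the other way from Bdnf. PMSC libraries held 11.4, 14.6, 15.5 and 18.2 CPM and HSC libraries 17.2, 28.2, 19.5 and 24.4 CPM, and the 2 ranges overlapped (log2 fold change of PMSC over HSC -0.58 ± 0.31). No cultured library exceeded 0.478 CPM: PMSC-MF-3d averaged 0.0469 ± 0.0710 CPM (5 counts in all), PMSC-MF-7d 0.334 ± 0.128 CPM and HSC-MF-7d 0.253 ± 0.177 CPM (SD, n = 4 each). The log2 fold changes were -8.14 ± 0.52 for PMSC-MF-3d over PMSC, -5.46 ± 0.41 for PMSC-MF-7d over PMSC and -6.45 ± 0.44 for HSC-MF-7d over HSC. The PMSC-MF-3d value was -9.62 without PMSC-MF-3d replicate 2, which held 4 of that group's 5 counts. Every library of both starting cell types was above every cultured library.

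Gdnf, the founding ligand of its family, was low throughout and absent from the counts of all 4 HSC libraries. PMSC held 6.98, 8.40, 13.6 and 8.77 CPM, PMSC-MF-3d 3.31, 5.85, 6.64 and 3.69 CPM, PMSC-MF-7d 1.45, 5.18, 3.89 and 3.85 CPM, and HSC-MF-7d 6.20, 6.99, 5.86 and 7.65 CPM. With 0 counts in HSC and a floor of 3 counts over the group, PMSC was at least 201-fold higher than HSC and HSC-MF-7d at least 150-fold higher than HSC. PMSC-MF-7d libraries were all below the PMSC libraries (log2 fold change -1.39 ± 0.34) and all below the HSC-MF-7d libraries (-0.90 ± 0.34). In TPM, Gdnf averaged 4.27 ± 0.56 in HSC-MF-7d, where Bdnf averaged 110.7 ± 5.73 (SD, n = 4 each).

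Ntrk2, which encodes TrkB, had the highest mean CPM of any member in any group. PMSC libraries held 554.6, 612.1, 513.0 and 485.1 CPM, PMSC-MF-3d 3.50, 2.18, 3.63 and 2.67 CPM, and PMSC-MF-7d 0.181, 0.326, 0.110 and 0.177 CPM. HSC-MF-7d libraries held 0.0526, 0.0507, 0.0681 and 0 CPM, from 3 counts in all, and HSC libraries 1.15, 1.19, 0.220 and 2.42 CPM. Every PMSC library was thus above every library of the other 4 groups, while PMSC-MF-3d overlapped HSC. PMSC stood 445-fold over HSC (log2 fold change 8.80 ± 0.32), and the log2 fold changes against PMSC were -7.49 ± 0.29 after 3 days of culture and -11.39 ± 0.37 after 7 days. Per scaled library size, HSC-MF-7d had 28.8-fold fewer counts than HSC (95% counting interval 9.87 to 140), from 3 counts against 80. In libraries of mixed cells such as these, fewer cells of a type and less RNA per cell cannot be told apart.

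The deposited mean transcript length, which RSEM weights by abundance, gave a further readout of Ntrk2 that the choice of the genes did not use and that was added after seeing the data. The files list 3 Ntrk2 transcripts, and the shortest mean length in any library was 7030 bases. The mean length in PMSC was 7067, 7086, 7058 and 7068 bases. If the shortest transcript has 7030 bases, the unweighted mean in a library without counts gives 8728 bases as the average of the 2 longer ones. On that assumption the 2 longer transcripts made up 2.19%, 3.27%, 1.67% and 2.25% of Ntrk2 message, a mean of 2.35 ± 0.67% (SD, n = 4). Of the 4 PMSC-MF-3d libraries 3 stood at 7030 bases and the other, at 7115 bases, was above all PMSC libraries. All 4 HSC libraries stood at 7030 bases, on 80 counts in all. The files do not name the transcripts behind these lengths. TrkB is known to be made as a full-length kinase and as a truncated receptor that lacks the kinase. In the GENCODE M21 annotation of mm10 the longest transcript has 8744 bases with 2463 coding bases. The next longest has 6846 bases with 1428 coding bases. But a transcript of 4706 bases also has 2463 coding bases there, and another of 3049 bases has 1428. Transcript length thus does not follow coding length, so the share of longer transcripts is not read as a share of the kinase form. PMSC-MF-3d averaged 18.6 bases below PMSC (two-sided exact permutation p = 0.486, Benjamini-Hochberg adjusted p = 0.667 over 10 length comparisons). The PMSC-MF-3d libraries held only 92, 58, 99 and 71 Ntrk2 counts. So few counts can hardly show a small share of longer transcripts, and no likeness of the 2 groups is read from this comparison.

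**Figure D2:**
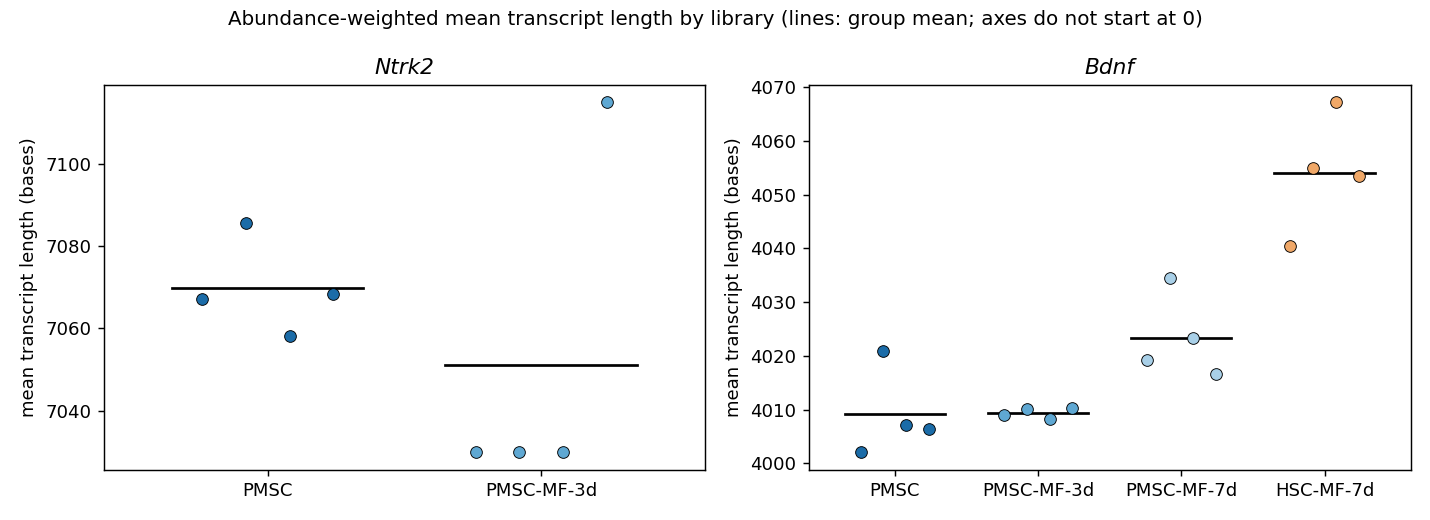
Abundance-weighted mean transcript length in bases of Ntrk2 (left) and Bdnf (right) in libraries with at least 50 counts of the gene per library in both groups compared, with points for libraries and lines for group means. PMSC libraries sit from 7058 to 7086 bases for Ntrk2, close to the shortest mean length in any library, 7030 bases. Bdnf is longest in HSC-MF-7d, at 4040 to 4067 bases.

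Bdnf was the one member with at least 50 counts in every PMSC-MF-7d library, so its mean transcript length could be compared with that in HSC-MF-7d. It averaged 4023 ± 7.85 bases in PMSC-MF-7d and 4054 ± 10.9 bases in HSC-MF-7d (SD, n = 4 each), ranges that did not overlap. That difference of -30.6 bases had a two-sided exact permutation p of 0.0286, the smallest that 4 against 4 libraries allow, and an adjusted p of 0.143 over the 10 comparisons. PMSC-MF-7d against PMSC-MF-3d (a difference of 14.0 bases) gave the same exact p of 0.0286 and adjusted p of 0.143. No length comparison passed the adjustment. Bdnf has 12 transcripts in the files and 7 promoters in the RefSeq table, and which of them carried the difference is not resolved by a mean length.

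Ntrk3, which encodes TrkC, was highest in PMSC, as Ntrk2 was. PMSC libraries held 70.9, 89.0, 76.4 and 100.2 CPM, while PMSC-MF-3d held 0.799, 1.31, 0.294 and 0.903 CPM and PMSC-MF-7d 0.290, 0.122, 0.147 and 0.0707 CPM. HSC-MF-7d held 1.05, 0.355, 0.409 and 0.372 CPM and HSC 0.121, 0.238, 0.110 and 0.196 CPM. PMSC was 493-fold over HSC (log2 fold change 8.94 ± 0.40), and PMSC-MF-7d differed from PMSC by -9.01 ± 0.38. HSC-MF-7d libraries were all above the HSC libraries (log2 fold change 1.71 ± 0.58), on 40 counts against 11, and the value was 1.18 without HSC-MF-7d replicate 1. In TPM, PMSC averaged 39.4 ± 7.86 for Ntrk3 and 129.7 ± 11.5 for Ntrk2 (SD, n = 4 each).

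Ngfr, which encodes the p75 receptor, was the one neurotrophin receptor highest in HSC. No 2 groups overlapped: PMSC held 65.4, 47.2, 40.01 and 59.5 CPM, PMSC-MF-3d 1.26, 6.26, 4.62 and 3.09 CPM, PMSC-MF-7d 0.109, 0.856, 0.806 and 0.212 CPM, HSC-MF-7d 15.3, 11.6, 14.3 and 13.7 CPM, and HSC 299.5, 416.9, 422.2 and 292.5 CPM. The log2 fold change of PMSC over HSC was -2.75 ± 0.31. Both cultures were below their source cells, by -6.76 ± 0.44 for PMSC-MF-7d over PMSC and -4.71 ± 0.34 for HSC-MF-7d over HSC. PMSC-MF-7d was 27.9-fold below HSC-MF-7d. In TPM, Ngfr averaged 27.4 ± 6.22 in PMSC and 240.8 ± 47.2 in HSC (SD, n = 4 each), the highest mean of any member in HSC.

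**Figure D3:**
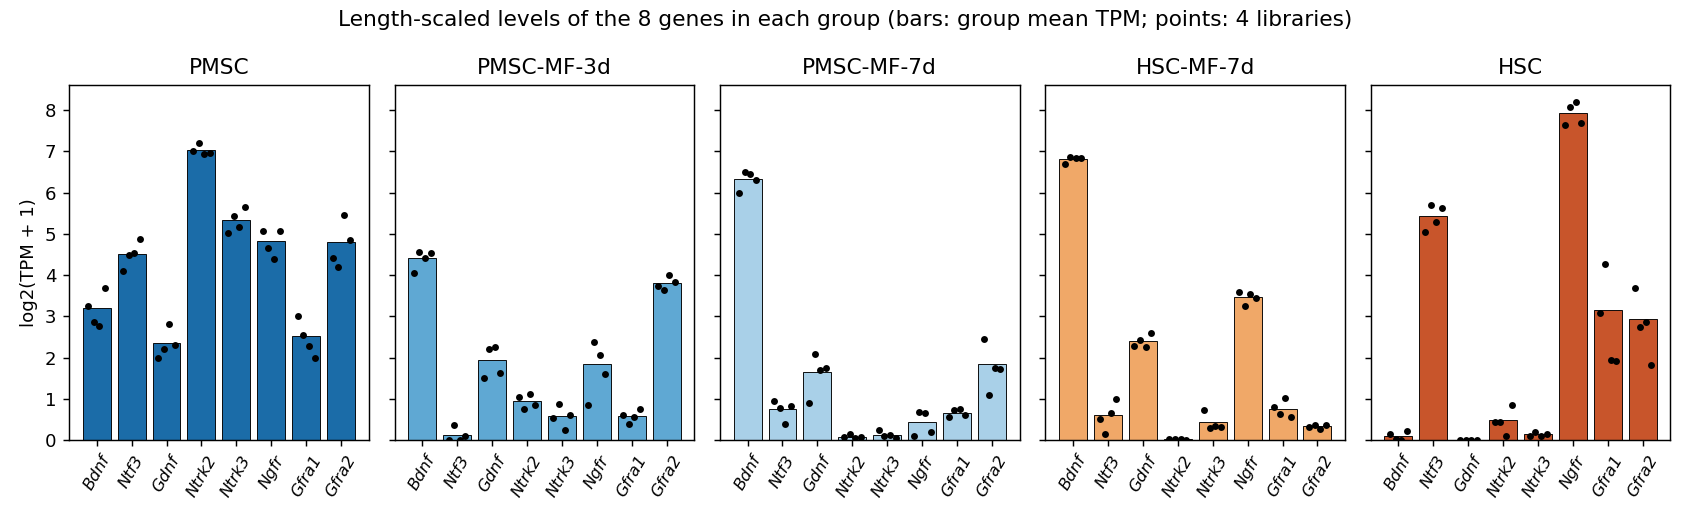
Length-corrected level of the 8 genes in each group, as log2(TPM + 1), with bars for the group mean TPM and points for the 4 libraries. Ntrk2 is the tallest bar in PMSC at a mean of 129.7 TPM, Bdnf in the 3 cultured groups, and Ngfr in HSC at 240.8 TPM.

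Gfra1, the co-receptor that presents GDNF to Ret, had overlapping ranges in the 2 starting cell types. PMSC held 19.9, 13.1, 10.8 and 7.61 CPM and HSC 15.9, 39.2, 5.78 and 5.56 CPM. HSC replicate 2 alone stood above all PMSC libraries, and the log2 fold change of PMSC over HSC, -0.37 ± 0.46, became 0.49 without it. All 12 cultured libraries were between 0.637 and 1.91 CPM, below every library of both starting cell types. The log2 fold change was -3.48 ± 0.53 for PMSC-MF-7d over PMSC and -3.66 ± 0.54 for HSC-MF-7d over HSC, the last being -2.77 without HSC replicate 2.

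Gfra2, the co-receptor that prefers neurturin, was highest in PMSC, with 40.6, 33.7, 86.0 and 51.9 CPM, against 18.7, 8.58, 9.35 and 3.40 CPM in HSC (log2 fold change 2.40 ± 0.39, the groups not overlapping). Its level after 3 days was still 18.8, 17.1, 22.0 and 19.8 CPM, and after 7 days 6.19, 1.67, 3.30 and 3.25 CPM. HSC-MF-7d libraries held 0.368, 0.355, 0.273 and 0.372 CPM. All PMSC-MF-7d libraries were above all HSC-MF-7d libraries (log2 fold change 3.37 ± 0.58). The log2 fold change of PMSC-MF-3d over PMSC, -1.45 ± 0.37, was smaller in size than those of Ntrk2, Ntrk3, Ntf3, Ngfr and Gfra1 in the same comparison. Differences between genes were not tested.

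**Figure D4:**
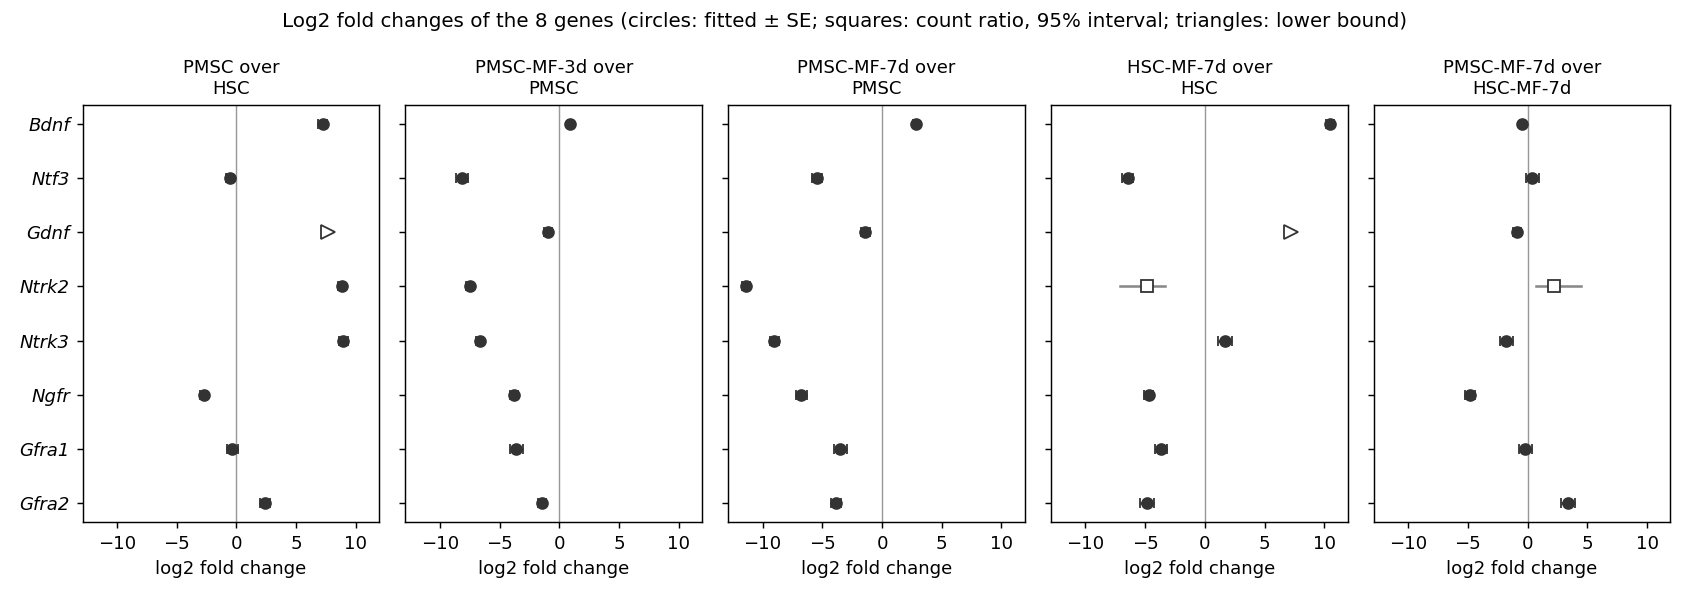
Log2 fold changes of the 8 genes in 5 comparisons, with circles and bars for the fitted value ± SE, open squares and lines for count ratios with 95% counting intervals, and open triangles for lower bounds against a group at 0. Bdnf lies right of 0 in both culture comparisons and Gdnf right of 0 only against HSC, while Ntf3, Ntrk2, Ngfr, Gfra1 and Gfra2 lie left of 0 in both culture comparisons.

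Counted over the 8 genes, PMSC-MF-3d libraries did not overlap those of PMSC for 8 genes, 1 higher and 7 lower, where 70.1% of all 14751 tested genes did not overlap (34.5% higher, 35.6% lower). PMSC-MF-7d and PMSC gave the same split of 1 higher and 7 lower, against 66.7% of all tested genes (34.1% higher, 32.6% lower). Between PMSC-MF-7d and PMSC-MF-3d, 1 was higher, 4 were lower and 3 overlapped, against 41.9% of genes not overlapping (20.5% higher, 21.3% lower). HSC-MF-7d stood clear of HSC for 3 higher and 5 lower genes, against 71.3% (34.9% higher, 36.5% lower). PMSC stood clear of HSC for 5 higher genes and 1 lower gene, against 61.2% (27.9% higher, 33.4% lower). PMSC-MF-7d stood clear of HSC-MF-7d for 2 higher and 4 lower genes, against 52.2% (26.6% higher, 25.6% lower). The genes were chosen from these contrasts, so nothing is read from the counts or from the medians that follow. The median log2 fold change of the 8 genes was 4.81 for PMSC over HSC, -4.66 for PMSC-MF-7d over PMSC and -4.17 for HSC-MF-7d over HSC, beside -0.10, 0.00 and -0.03 over all tested genes.

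Other genes of the neurotrophin system were tested in edgeR's quasi-likelihood fit over all genes, with Benjamini-Hochberg adjusted p under 0.05 as the threshold. These genes and the other lists below were also chosen with earlier results of these data known. Counts over a list and the p-values of its genes are therefore a description, and no independent support is read from them. Of 9 such genes, all tested, 8 were higher in PMSC than in HSC and none lower, where 73.7% of all tested genes passed, 33.6% as higher and 40.1% as lower. The ninth, Sorcs1, had no count in either group. Neurotrophin-4 (Ntf5), the other TrkB ligand, averaged 3.67 CPM in HSC-MF-7d and 0.0327 CPM in HSC, from 2 counts in replicate 4, a ratio of 123 (95% counting interval 33.9 to 1010). Ntf5 is among the 8 higher genes with 0.582 CPM in PMSC, where replicate 2 held 24 of the 36 counts. Its PMSC and HSC libraries overlapped.

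The sortilin family, whose members carry proneurotrophins or serve as co-receptors of p75, was also higher in PMSC than in HSC where it was counted. Sort1 averaged 63.7 ± 17.5 CPM in PMSC and 29.5 ± 5.87 CPM in HSC (a log2 difference of 1.11 ± 0.18, edgeR adjusted p = 1.3e-05). Sorcs2 was at 76.8 ± 19.96 CPM in PMSC, against 6.02 ± 2.10 CPM in HSC (3.67 ± 0.25, edgeR adjusted p = 1e-10). For Sorl1 PMSC held 41.0 ± 4.98 CPM, against 3.44 ± 1.74 CPM in HSC (3.58 ± 0.40, edgeR adjusted p = 1.2e-07). Sorcs3 was at 15.1 CPM in PMSC and 0.272 CPM in HSC (a log2 difference of 5.73, and 6.31 without HSC replicate 3). Nradd, a p75 homologue with a death domain, had mean CPM of 12.9 for PMSC, 42.5 for PMSC-MF-3d, 31.1 for PMSC-MF-7d, 33.0 for HSC-MF-7d and 2.28 for HSC, and rose in both cultures (edgeR adjusted p = 1.3e-07 for PMSC-MF-7d over PMSC and 1.3e-13 for HSC-MF-7d over HSC).

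In PMSC-MF-7d against PMSC, 2 of the 9 other neurotrophin genes rose and 6 fell, where 77% of all tested genes passed, 38.1% as higher and 39% as lower. Sort1 fell to 7.74 CPM (a log2 change of -3.04 ± 0.19, edgeR adjusted p = 1.8e-11). Sorcs3 fell to 0 counts in both PMSC cultures, at least 540-fold lower in PMSC-MF-7d than in PMSC, and Sorcs1 had no count in PMSC and 4.54 CPM in PMSC-MF-7d, at least 86.7-fold higher. In HSC-MF-7d against HSC, 4 of 9 rose and 2 fell, where 74.5% of all tested genes passed, 36% as higher and 38.5% as lower. One of the falls, that of Sorcs3 (edgeR adjusted p = 0.038), did not pass with a replicate block, in DESeq2, in limma on log2(TPM + 1) or in 5 of the 8 fits that left out 1 library. Sort1 rose there, with 46.3 ± 5.49 CPM in HSC-MF-7d and 29.5 ± 5.87 CPM in HSC (0.65 ± 0.18, edgeR adjusted p = 0.0026). The difference between the 2 culture changes of Sort1 was itself tested and was -3.69 ± 0.26 on the log2 scale (edgeR adjusted p = 4.3e-10). Of the 9 genes, 8 passed that test as lower and none as higher, where 60.6% of all tested genes passed, 31.4% as higher and 29.2% as lower. The count was 7 with library totals, with no filter or with only the groups compared, where Sorl1 (-1.51, edgeR adjusted p = 0.05) did not pass. Sorl1 also did not pass in 12 of the 16 fits that left out 1 library, and Sorcs3 did not pass without HSC-MF-7d replicate 4.

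In PMSC-MF-3d against PMSC, 2 of the 9 genes rose and 6 fell, where 78.3% of all tested genes passed, 37.2% as higher and 41.1% as lower. The rise of Sorcs1 (edgeR adjusted p = 0.03) did not pass in DESeq2 or limma on log2(TPM + 1), or without PMSC replicate 1, 2 or 4. Sort1 fell to 4.72 CPM there (a log2 change of -3.76 ± 0.20, edgeR adjusted p = 1.3e-12). In PMSC-MF-7d against PMSC-MF-3d, 2 rose and 3 fell, where 36% of all tested genes passed, 18.6% as higher and 17.4% as lower. Between the myofibroblasts of the 2 origins, 2 were higher and 2 lower in PMSC-MF-7d than in HSC-MF-7d, where 47.1% of all tested genes passed, 23.9% as higher and 23.1% as lower. Sort1 was among the lower ones, at 7.74 ± 1.46 CPM in PMSC-MF-7d and 46.3 ± 5.49 CPM in HSC-MF-7d (SD, n = 4 each).

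**Figure D5:**
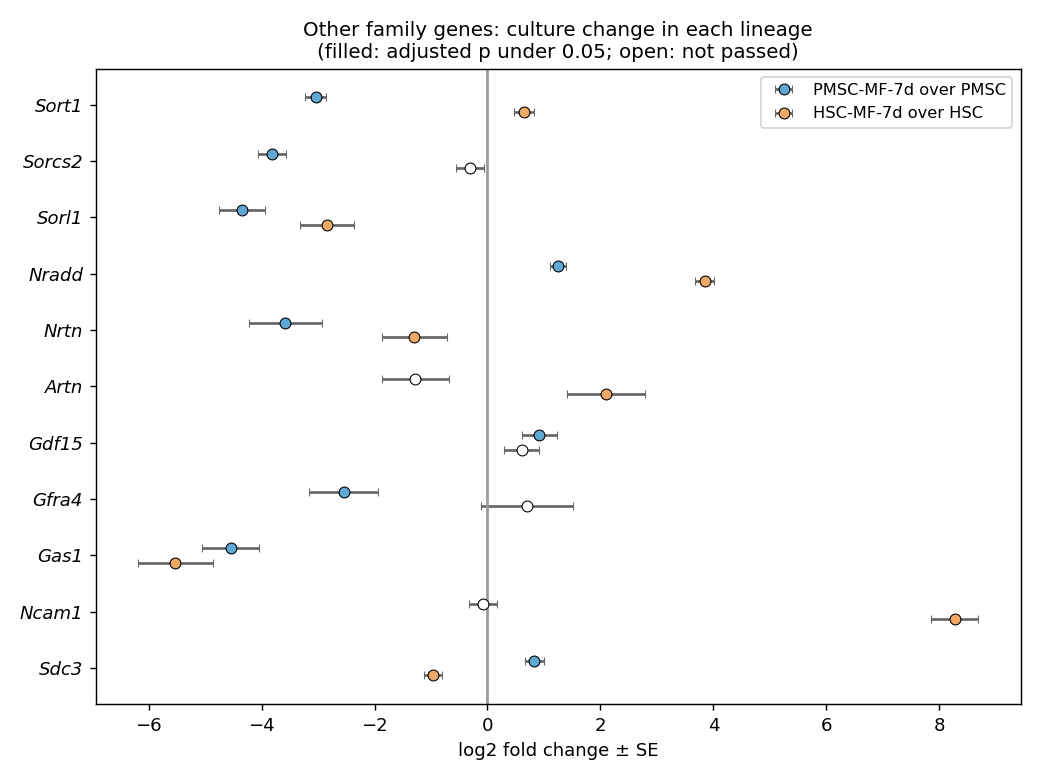
Log2 fold changes ± SE of 11 other family genes with counts in every group compared, for PMSC-MF-7d over PMSC (blue) and HSC-MF-7d over HSC (orange), filled where edgeR's adjusted p was under 0.05. Ncam1 lies at 8.28 in the stellate comparison and at -0.08 in the portal one. Sort1 and Sdc3 lie on opposite sides of 0 in the 2 comparisons, filled in both. Artn and Gfra4 also lie on opposite sides, with Artn filled only in the stellate comparison and Gfra4 only in the portal one.

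Of 11 other GDNF family genes, 8 were tested, and 5 were higher and 2 lower in PMSC than in HSC, against 73.7% of all tested genes passing (33.6% higher, 40.1% lower). Ret, the kinase through which the family signals, averaged 4.90 ± 3.49 CPM in PMSC, with replicate 3 at 10.1 CPM, and had no count in HSC, at least 96.2-fold higher (edgeR adjusted p = 5.6e-07). In PMSC-MF-7d it fell to 0.591 CPM (a log2 change of -3.02 ± 0.59, edgeR adjusted p = 0.00019, and -2.40 without PMSC replicate 3). In HSC-MF-7d it was at 0.757 CPM, at least 17-fold higher than in HSC (edgeR adjusted p = 8.2e-05, but 0.089 in limma on log2(TPM + 1)). Ret averaged no more than 1.19 TPM in any group. Neurturin (Nrtn), the preferred ligand of GFRα2, averaged 2.69 CPM in PMSC and 2.68 CPM in HSC and did not pass (edgeR adjusted p = 1), while artemin (Artn) averaged 4.03 CPM in PMSC and 0.322 CPM in HSC (3.59 ± 0.70, edgeR adjusted p = 0.00011). HSC replicate 2 held 17 of the 22 Artn counts of HSC, and the log2 fold change was 5.26 without it. Gdf15, a distant family member, was lower in PMSC, at 14.5 CPM against 25.3 CPM in HSC (edgeR adjusted p = 0.03). The Gdf15 libraries of the 2 groups overlapped, and the gene did not pass with only these groups fitted (edgeR adjusted p = 0.13) or in 5 of the 8 fits that left out 1 library: PMSC replicate 2, 3 or 4 or HSC replicate 1 or 2. Gfra4 was higher in PMSC, at 7.62 CPM against 0.228 CPM in HSC (a log2 fold change of 5.04, and 6.83 without HSC replicate 2, which held 12 of the 15 HSC counts). Persephin (Pspn) and Gfra3 did not pass the filter, with group means of at most 0.802 and 0.116 CPM, and Gfral had no count in any library. In culture, 2 of the 8 tested genes rose and 4 fell in PMSC-MF-7d over PMSC, against 77% of all tested genes passing (38.1% higher, 39% lower), and 3 rose and 3 fell in HSC-MF-7d over HSC, against 74.5% (36% higher, 38.5% lower). One of the HSC-MF-7d falls, that of Nrtn (edgeR adjusted p = 0.048), did not pass with library totals, with no filter or in 7 of the 8 fits that left out 1 library, HSC-MF-7d replicate 1 being the exception.

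Other proteins are known to bind GDNF ligands or their receptors. Ncam1, an adhesion molecule that can serve GDNF as a receptor without Ret, had mean CPM of 98.2 ± 32.4 for PMSC, 133.5 ± 10.53 for PMSC-MF-3d, 92.9 ± 34.6 for PMSC-MF-7d, 99.4 ± 17.1 for HSC-MF-7d and 0.317 ± 0.238 for HSC (SD, n = 4 each). It rose in HSC-MF-7d over HSC by 8.28 ± 0.42 on the log2 scale (edgeR adjusted p = 1.2e-12) and did not pass in PMSC-MF-7d over PMSC (edgeR adjusted p = 0.77). Gas1, a GFRα-like surface protein, fell in both cultures, to 11.1 CPM in PMSC-MF-7d against 260.6 CPM in PMSC and to 0.636 CPM in HSC-MF-7d against 29.7 CPM in HSC. For Gas1, PMSC-MF-7d replicate 1 held 30.7 CPM and the other 3 libraries of that group at most 5.90 CPM, and the log2 fold change of PMSC-MF-7d over PMSC, -4.55, was -5.81 without replicate 1. Syndecan-3 (Sdc3), a proteoglycan that binds GDNF, was lower in PMSC, at 150.4 CPM against 1287 CPM in HSC (log2 fold change -3.10 ± 0.18, edgeR adjusted p = 8.7e-12).

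Genes downstream of the receptors are given beside the shares of all tested genes, and nothing is read from their counts. Of 20 listed Trk and Ret adaptor genes, 18 were tested, and 9 were higher and 8 lower in PMSC than in HSC, against 73.7% of all tested genes passing (33.6% higher, 40.1% lower). Shc2, an adaptor that couples Trk receptors to Ras, averaged 62.8 ± 8.87 CPM in PMSC and 0.139 ± 0.131 in HSC (log2 fold change 8.80 ± 0.32, edgeR adjusted p = 1.7e-14) and was still 17.3 CPM in PMSC-MF-7d, against 0.255 CPM in HSC-MF-7d. Of 14 tested p75 effector genes, 6 were higher and 4 lower in PMSC than in HSC. In culture 6 of them rose and 3 fell in PMSC-MF-7d over PMSC, against 77% of all tested genes passing (38.1% higher, 39% lower), and 9 rose and 4 fell in HSC-MF-7d over HSC, against 74.5% (36% higher, 38.5% lower). Among them Bex3, which binds the p75 death domain, reached 226.7 CPM in HSC-MF-7d against 23.1 CPM in HSC (3.30 ± 0.18, edgeR adjusted p = 2.4e-12).

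Of 9 tested genes that cleave proneurotrophins or check that cleavage, 6 were higher and 3 lower in PMSC than in HSC, against 73.7% of all tested genes passing (33.6% higher, 40.1% lower). In PMSC-MF-7d over PMSC 3 rose and 5 fell, against 77% (38.1% higher, 39% lower), and in HSC-MF-7d over HSC 6 rose and 1 fell, against 74.5% (36% higher, 38.5% lower). Plat, the tissue plasminogen activator, averaged 577.5 CPM in PMSC and 5.96 in HSC (log2 fold change 6.60 ± 0.36, edgeR adjusted p = 3.8e-12), and the proprotein convertase Pcsk6 averaged 569.7 CPM in PMSC and 9.36 CPM in HSC. Plasminogen (Plg), which hepatocytes make, was lower in PMSC at 3.42 CPM against 189.2 CPM in HSC (a log2 fold change of -5.73, and -6.55 without PMSC replicate 2), where the hepatocyte marker sum was also higher, and the part of those markers in this value was not tested.

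Readouts known to follow Ret or ERK signalling in other tissues are given next, and no state of either pathway is read from their counts. Etv4, a target of Ret in the developing mouse kidney, rose to 35.7 CPM in PMSC-MF-7d against 0.585 CPM in PMSC, and to 16.6 CPM in HSC-MF-7d against 0.0803 CPM in HSC (edgeR adjusted p = 6.7e-12 and 1.1e-11), the second a log2 fold change of 7.67, or 9.36 without HSC replicate 4, which held all but 1 of the HSC counts of Etv4. Of the 8 tested genes in that kidney list, 4 rose and 3 fell in PMSC-MF-7d over PMSC, against 77% of all tested genes passing (38.1% higher, 39% lower), and 4 rose and 2 fell in HSC-MF-7d over HSC, against 74.5% (36% higher, 38.5% lower). Among 9 ERK-responsive genes, 3 rose and 6 fell in PMSC-MF-7d over PMSC, and 4 rose and 3 fell in HSC-MF-7d over HSC, beside the same shares. Dusp4 rose and Egr1 fell in both (Egr1 by 4.27 and 4.31 on the log2 scale). Of 8 other neurotrophic factor genes, 1 rose and 3 fell in PMSC-MF-7d over PMSC, against 77% of all tested genes passing (38.1% higher, 39% lower). In HSC-MF-7d over HSC 2 of them rose and 2 fell, against 74.5% (36% higher, 38.5% lower). Clcf1, a neurotrophic cytokine, rose in both, to 35.8 CPM in PMSC-MF-7d against 15.9 CPM in PMSC and to 16.8 CPM in HSC-MF-7d against 2.40 CPM in HSC (edgeR adjusted p = 2.2e-05 and 1.3e-09). Midkine (Mdk) fell to 1.29 CPM in PMSC-MF-7d, against 70.3 CPM in PMSC. Pleiotrophin (Ptn) fell to a median of 0.208 CPM in PMSC-MF-7d, where replicate 1 stood apart at 3.29 CPM, against a median of 84.2 CPM in PMSC (a log2 fold change of -6.42, and -9.01 without that library).

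Of 6 neural features described in stellate cells, 2 were higher and 3 lower in PMSC than in HSC, against 73.7% of all tested genes passing (33.6% higher, 40.1% lower). Gfap, a glial filament, averaged 3.42 ± 0.12 CPM in PMSC and 21.0 ± 5.87 CPM in HSC, and synaptophysin (Syp) 17.9 CPM in PMSC and 13.2 CPM in HSC. In culture 3 of the 6 rose and 3 fell in HSC-MF-7d over HSC, against 74.5% of all tested genes passing (36% higher, 38.5% lower). In PMSC-MF-7d over PMSC 2 rose and 3 fell, against 77% (38.1% higher, 39% lower). Gfap fell to 0.120 CPM in HSC-MF-7d (log2 fold change -7.48 ± 0.53, edgeR adjusted p = 1.3e-10, and -8.11 without HSC-MF-7d replicate 3). Ncam1, also among the 6, rose in HSC-MF-7d over HSC by 8.28 ± 0.42 on the log2 scale (edgeR adjusted p = 1.2e-12). Summed over 9 Schwann and glial markers, PMSC libraries held 9.06 to 14.3 CPM, PMSC-MF-3d 3.54 to 6.17, PMSC-MF-7d 5.61 to 7.18, HSC-MF-7d 1.91 to 3.68 and HSC 6.38 to 13.9. Sox10 was at 3 counts in PMSC and at 0 in HSC. Over 10 neuronal markers, PMSC libraries held 35.7 to 58.5 CPM, PMSC-MF-3d 7.37 to 11.5, PMSC-MF-7d 31.9 to 42.9, HSC-MF-7d 11.6 to 18.4 and HSC 0 to 1.57, with Th at 0 in PMSC and Dbh, the dopamine β-hydroxylase, at 22.0 ± 12.5 CPM there. The part of these markers in the levels of the receptors was not tested.

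Likeness to each member was measured as the root mean square difference between mean-centred log2 CPM over the 20 libraries, among 14015 tested genes, for the 7 members with at least 10 CPM in a group. The 4 libraries of a group lie close together, so this describes 5 group levels more than 20 points. Nearest to Ntrk2 were Scn7a, a sodium channel-like sensor (0.87), Fmo2 (0.892) and Spon1 (1.03), beside a median of 4.36 over all genes. Nearest to Ntrk3 were Tnfaip6 (0.547), Adamts19 (0.772) and Dbh (0.808), with a median of 3.30. Bdnf stood nearest to Kif1a, a motor of axonal transport (0.676), the netrin receptor Unc5c (0.804) and tissue factor F3 (0.834), with a median of 3.62. Ngfr stood nearest to Syt9 (0.612), She (0.784) and Hhip, a hedgehog-binding protein (0.796), with a median of 3.38. Ntf3 was nearest to Mylip (0.70), Gfra1 to Nat8 (0.505) and Gfra2 to Pdlim4 (0.729), with medians of 3.16, 1.91 and 2.56.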

How the data were processed

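Per the labels' protocols, RNeasy Micro columns gave the RNA and a KAPA stranded mRNA kit the libraries. RSEM 1.2.28, STAR 2.5.3a, Trimmomatic and FastQC are named, with the build mm10 and without the role of each, per the submitters' processing notes. Each library has 1 deposited table of 24848 genes. The deposited expected counts are RSEM estimates, with 0.64% to 0.87% of genes carrying a fraction. The deposited TPM values and abundance-weighted mean transcript lengths are RSEM's, per the file headers.

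Here the expected counts, made whole by rounding, went into edgeR 4.0.16 (R 4.3.3): filterByExpr (14751 genes kept, 10097 left out), trimmed-mean scaling, and a robust quasi-likelihood fit with 5 group means over all 20 libraries. P-values were adjusted by Benjamini-Hochberg over all tested genes, with 0.05 as threshold. SE is the log2 fold change over the square root of F. The fit was also run on counts simulated from its own estimates, with changes placed only in genes with enough counts. That run does not check groups with few counts. Lower bounds use 3 counts over a group, and intervals and bounds cover counting error only.

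The 8 genes and the gene lists were chosen with earlier results of these data known. Named from the other lists were up to 4 called genes per comparison with the largest change, from those reaching 10 CPM in the higher group, of which a few are printed, and marker genes where a list moves with a result. Length comparisons were added after seeing the data. Alternatives were library totals, no filter, only the groups compared, a replicate block, DESeq2 1.42.0, limma 3.58.1 on log2(TPM + 1) and leaving out each library. FPKM values were not used. Counts over a list include every tested gene of it, and some of its genes are not reported here.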

Additional observations from a re-analysis of the deposited data

Results flagged for a closer look

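In 10 of 95 sets of 4 libraries, each a family gene in a group, 1 library stood far from the other 3 by Dixon's criterion (critical ratio 0.829), which chance gives in about 1 set in 20. Among the members these were Ntrk3 in HSC-MF-7d replicate 1 at 1.05 CPM, beside 0.355 to 0.409 in the others, and Bdnf in HSC-MF-7d replicate 1 at 169.8 CPM (170 rounded), beside 185 to 188. HSC-MF-7d replicate 1 also stood apart for Nradd, at 37.9 CPM. PMSC-MF-7d replicate 1 stood apart for Sorcs2 at 7.82 CPM, Sorl1 at 4.09 CPM and Gas1 at 30.7 CPM. PMSC-MF-3d replicate 2 did so for Artn at 2.44 CPM and Sdc3 at 198 CPM, PMSC replicate 4 for Sorl1 at 48.4 CPM, and PMSC replicate 3 for Ret at 10.1 CPM.

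The culture change of PMSC (PMSC-MF-7d over PMSC) minus that of HSC (HSC-MF-7d over HSC) passed the test of the difference, with edgeR adjusted p under 0.05, for the following other family genes. On the log2 scale it was -5.92 for Ntf5, -3.69 for Sort1, -3.51 for Sorcs2, -1.51 for Sorl1, -2.59 for Nradd, -2.28 for Nrtn, -3.37 for Artn, -3.24 for Gfra4, -8.36 for Ncam1 and 1.79 for Sdc3. It was -8.20 for Sorcs3 and -10.00 for Ret, each fitted against a group at 0 counts, so those sizes depend on the fit's handling of zeros. Leaving out 1 library ended the call of Sorl1 in 12 of 16 fits, of Nrtn without PMSC replicate 1, PMSC-MF-7d replicate 2 or HSC-MF-7d replicate 1, and of Sorcs3 without HSC-MF-7d replicate 4. Without HSC replicate 2 the difference was -5.03 for Artn and -5.02 for Gfra4, and without PMSC-MF-7d replicate 1 it was -3.38 for Nrtn and -2.11 for Sorl1. The 2 HSC counts of Ntf5 came from replicate 4, so its size rests on that library. Of all tested genes, 60.6% passed in this comparison.

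For Ntrk3 and Gdnf all PMSC-MF-7d libraries were below all PMSC libraries, while all HSC-MF-7d libraries were above all HSC libraries. The difference was not tested. The log2 fold change of Ntrk3 was -9.01 for PMSC-MF-7d over PMSC and 1.71 for HSC-MF-7d over HSC. The second rests on 40 counts against 11, with 20 of the 40 in HSC-MF-7d replicate 1, and was 1.18 without that library. That of Gdnf was -1.39 for PMSC-MF-7d over PMSC, while HSC-MF-7d held at least 150-fold more Gdnf than HSC.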

How the results depend on the processing

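The counts of called genes stayed within 1.5 times the reported ones under every alternative run. Leaving out 1 library gave 10701 to 10919 for PMSC over HSC, 11279 to 11530 for PMSC-MF-3d over PMSC, 4459 to 5115 for PMSC-MF-7d over PMSC-MF-3d, 11022 to 11321 for PMSC-MF-7d over PMSC, 10726 to 10861 for HSC-MF-7d over HSC, 6208 to 6815 for PMSC-MF-7d over HSC-MF-7d, and 8595 to 8983 for the difference of culture changes. With group means removed, 3 of 4 PMSC-MF-7d libraries correlated best with the PMSC-MF-3d library of the same replicate number. In the other comparisons 0 to 2 of 4 did so. A replicate block gave 10772, 11460, 5094, 11254, 10898, 6815 and 8852 calls in the same order of comparisons. Scaling by library totals shifted the all-gene median to -0.44 from -0.10 (log2) for PMSC over HSC and to 0.43 from 0.00 for PMSC-MF-7d over PMSC, and the share of calls that were higher to 33.3% from 45.6% and to 63.5% from 49.4%. It also moved that share to 61.7% from 47.5% for PMSC-MF-3d over PMSC and to 66.0% from 51.8% for the difference, and limma on log2(TPM + 1) gave 31.6%, 65.2%, 60% and 68.0% for these 4 and 64.4%, against 51.7%, for PMSC-MF-7d over PMSC-MF-3d. Of the 56 fold changes of the 8 genes, scaling by totals moved 17 by more than the spread between replicates and limma on log2(TPM + 1) 41, with Ntrk2 in PMSC over HSC at 6.57 against 8.80 and Bdnf at 3.04 against 7.22 in limma, while scaling by totals changed the sign of none. The difference of culture changes of Ngfr, -2.05, became 0.056 under limma on log2(TPM + 1), and that of Gfra2, 0.97, became -0.52 there. The cause was not tested. Leaving out a library turned the sign of Gfra1 in comparisons in which its libraries overlapped, and of its difference of culture changes (0.18, and -0.68 without HSC replicate 2). Levels under about 0.1 CPM rest on a few counts, and there the depth sets the limit.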
